A study of Mus musculus with 2 samples.

Results

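The matrix metalloproteinases, the ADAM and ADAMTS proteases and their inhibitors were measured in mouse peritoneal macrophages 48 h after siRNA transfection. One culture had received a control siRNA (1 array) and the other an HDAC9 siRNA (1 array); HDAC9 is a histone deacetylase of class IIa. Per the labels, both groups were peritoneal macrophages of male C57BL/6 mice, and no other treatment or allele is listed; ages and any pooling of animals were not given in the sources used here. These genes were taken by name, as every gene whose symbol is Mmp, Timp, Adam, Adamts or Adamtsl followed by a number and at most 1 letter. There were 70 such genes among 18193 genes on the arrays: 18 Mmp, 4 Timp, 28 Adam, 15 Adamts and 5 Adamtsl genes. Each was read from the probe set whose mean signal was highest. Because each group had 1 array, the differences have no test or p-value and no spread between cultures beside them.

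These families cut proteins outside the cell. The matrix metalloproteinases (MMPs) are secreted or membrane-bound zinc enzymes that degrade collagens, elastin and proteoglycans, and macrophages are a well known source of several of them. The ADAMs are membrane proteins with a disintegrin and a metalloproteinase domain, which release cytokines, growth factors and receptors from the cell surface, while the ADAMTS enzymes are secreted and act on proteoglycans and procollagens. The tissue inhibitors of metalloproteinases (TIMPs) block the active sites of these enzymes, and the ADAMTS-like proteins lack the protease domain.

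On chromosome 9, 10 Mmp genes lie side by side in the RefSeq gene table of GRCm38.p6, with 0 other protein-coding genes between them, and 9 of them are among the 70 genes. Their upstream sequences are shown because MMP promoters are the textbook case of the AP-1 site, the 7-base element TGAGTCA or its reverse complement TGACTCA, bound by Fos and Jun proteins. In RefSeq windows of 250 bases before to 50 after the start site, 7 of 11 windows of the 9 cluster genes held this element (63.6%), against 5.2% of all 32851 windows. Among the other metalloproteinase, ADAM and TIMP genes with a window, 2 of 35 windows held it (5.71%), those of Adam19 and Adam1b. The MEF2 motif, the site of the transcription factors that class IIa deacetylases bind, was found in 1 window of the 70 genes, that of Mmp10, and in 3.19% of all windows; both strands were searched. Of the 70 genes, 41 matched a window by symbol. The 100 bases before the start site are given 5′ to 3′ on the strand of the gene for the 7 cluster genes with the element, which is in capitals:
Mmp13, chr9:7272414-7272513, plus strand: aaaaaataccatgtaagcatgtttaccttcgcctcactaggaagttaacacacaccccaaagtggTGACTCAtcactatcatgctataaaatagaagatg
Mmp12, chr9:7347274-7347373, plus strand: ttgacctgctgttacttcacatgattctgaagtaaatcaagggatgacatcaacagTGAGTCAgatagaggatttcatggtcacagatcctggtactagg
Mmp3, chr9:7445722-7445821, plus strand: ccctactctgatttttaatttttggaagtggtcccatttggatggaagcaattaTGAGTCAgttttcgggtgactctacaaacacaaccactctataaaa
Mmp10, chr9:7502242-7502341, plus strand: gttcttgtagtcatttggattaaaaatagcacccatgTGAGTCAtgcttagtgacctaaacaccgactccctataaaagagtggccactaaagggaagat
Mmp1a, chr9:7464041-7464140, plus strand: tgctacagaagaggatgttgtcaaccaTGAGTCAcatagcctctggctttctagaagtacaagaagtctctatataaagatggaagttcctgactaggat
Mmp1b, chr9:7388027-7388126, minus strand: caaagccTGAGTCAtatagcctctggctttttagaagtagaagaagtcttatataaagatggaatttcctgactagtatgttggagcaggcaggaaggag
Mmp7, chr9:7691990-7692089, plus strand: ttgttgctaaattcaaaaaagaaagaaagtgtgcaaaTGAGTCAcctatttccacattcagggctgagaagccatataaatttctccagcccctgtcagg

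The element began 35 bases before the start site in Mmp13, 44 in Mmp12, 46 in Mmp3, 63 in Mmp10 and Mmp7, 73 in Mmp1a and 93 in Mmp1b. A match of letters is a description and not a measured binding site. RefSeq lists more than 1 start site for Mmp12 and Mmp7, and the other window of each held no such element. On the arrays, 5 of the 9 cluster genes were above background, and their log2 ratios, HDAC9 siRNA against control siRNA, ran from -0.23 (Mmp12) to 0.18 (Mmp13), with a median of 0.10. Mmp1a, Mmp1b, Mmp7 and Mmp20 were below background on both arrays, so genes with the same element lay on either side of the background.

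Background was set by 80 probe sets of odorant and pheromone receptor genes, which act mainly in sensory neurons. The 95th percentile of these signals was log2 6.34 and was used as the floor. Lower signals were raised to it before a ratio was taken, so a ratio with 1 signal under the floor is a bound. Of the 70 genes, 40 exceeded the floor on 1 or both arrays and 38 on both: 14 of 18 Mmp, 3 of 4 Timp, 12 of 28 Adam, 9 of 15 Adamts and 2 of 5 Adamtsl genes. Pairs of log2 signals are given with the control array first. Signals of different probe sets were not read as relative amounts of different transcripts, since probes differ in how well they bind. Summed signals of marker lists add all measured genes, also those below background. Probe sets with high signals therefore weigh most in them, and they are not amounts of cells. The only measure of scatter was internal: for 5671 genes, the ratios of the 2 probe sets with the highest signals were subtracted, and the SD of that difference over the square root of 2 came to 0.29 log2. With genes split into 4 equal bins by mean signal, it was 0.41 in the lowest bin and 0.19 in the highest.

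On the HDAC9 siRNA array 2 of the 40 genes were at least 2-fold higher, the aggrecanase gene Adamts4 and the adhesion gene Adam23, and 0 were at least 2-fold lower. The shares past 2-fold among all 12090 genes above background were 1.44% in the higher direction and 0.372% in the lower. Neither quite reached 2-fold after quantile normalization (log2 ratios of 0.999 for Adamts4 and 0.94 for Adam23) or loess (0.99 and 0.96). Both genes lay in the lowest bin of mean signal, where 2.91% of genes were at least 2-fold higher and which held 15 of the 40. At 1.5-fold, 5 of the 40 genes (12.5%) were higher and 0 lower, against 7.81% and 2.79% of all genes; the other 3 were Mmp23, Adam12 and Adamts3. In the lowest bin, where 3 of those 5 genes lay, 15.9% of genes were at least 1.5-fold higher. Most of the family differed little: 25 of the 40 ratios (62.5%) were within 0.29 of 0, as were 65.7% of all genes. The median ratio was 0.14, against 0.03 for all genes, and 30 of the 40 ratios (75%) were above 0, against 54.1% of all genes; centred on the median, quantile-normalized and loess-adjusted values gave 29 of 40, 27 of 40 and 29 of 41 above 0. In a culture measured in bulk, fewer cells of a type and less RNA per cell cannot be told apart.

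**Figure D1:**
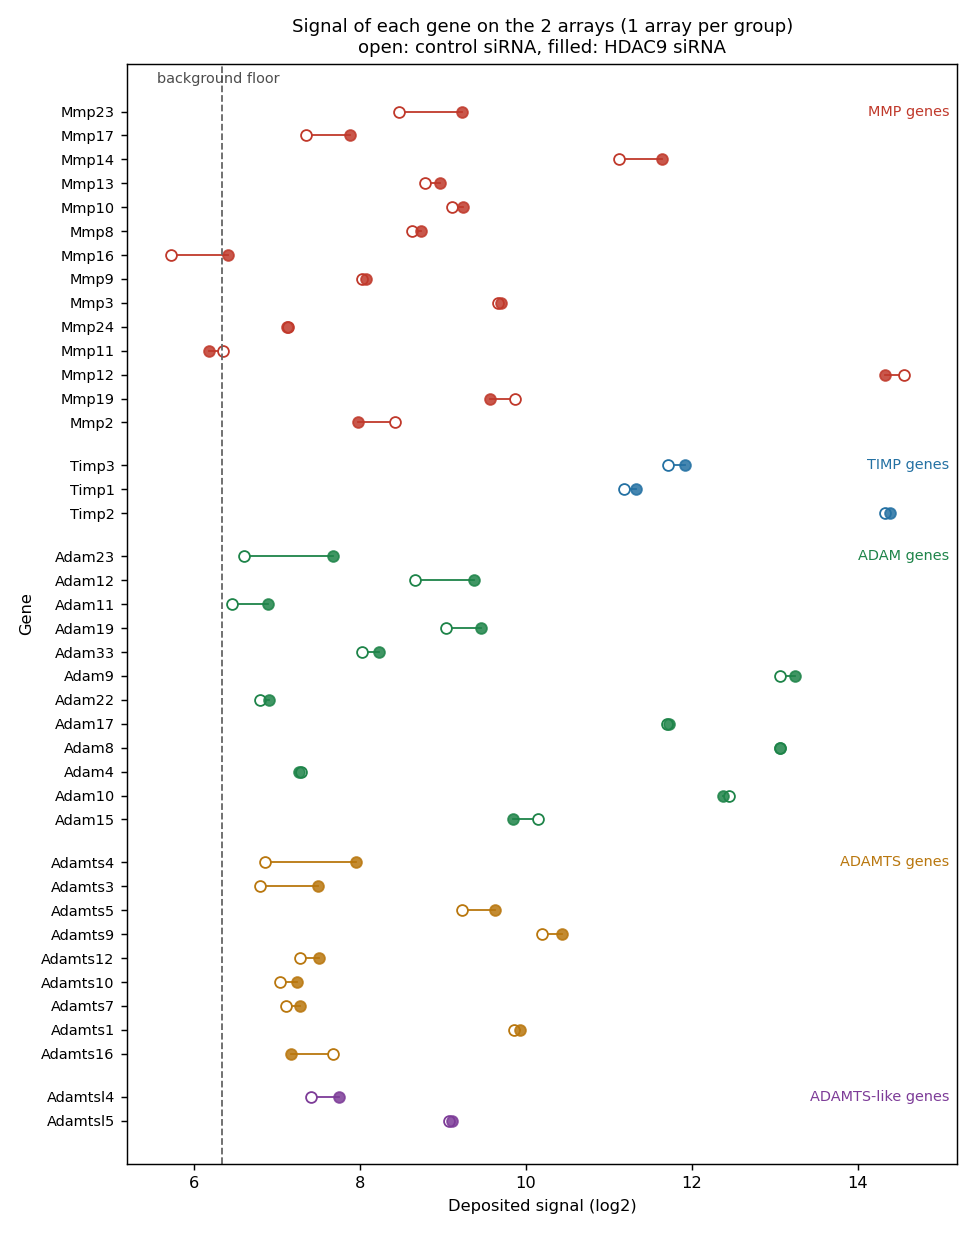
Deposited log2 signal of the 40 genes above background on the control siRNA array (open circles) and the HDAC9 siRNA array (filled circles), 1 array per group, by subfamily and sorted by ratio; the dashed line is the background floor at 6.34. The longest shifts to the right belong to Adamts4 and Adam23, which both start close to the floor, while Mmp12, Timp2, Adam8 and Adam10 lie far above it with open and filled circles close together.

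The MMP genes with the most typical macrophage roles differed little. Mmp12, the macrophage elastase that degrades elastin, had log2 signals of 14.56 and 14.33, 1.17-fold lower. Mmp9, a gelatinase of leukocytes, read 8.02 and 8.07 by its highest-signal probe set, a ratio of 0.05, and its second probe set was at -0.28 as a bound. The ratio of Mmp12 was smaller than the scatter over all bins (0.29) but larger than that of the highest bin (0.19), in which it lay. The collagenase genes Mmp13 (8.78 and 8.97) and Mmp8 (8.63 and 8.73) and the stromelysin genes Mmp3 (9.66 and 9.70) and Mmp10 (9.11 and 9.24) had ratios from 0.03 to 0.18. The stromelysin-3 gene Mmp11 was at the floor, with 6.35 and, below background, 6.18.

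Mmp2, the gelatinase of stromal cells, gave opposite readings. The probe set with the higher mean signal read 8.42 and 7.98 (-0.44), and the other read 7.72 and 8.03 (0.31). No direction can be given for this gene from these arrays. Mmp19, an MMP with broad substrates, was lower by both of its probe sets, from 9.87 to 9.57 (-0.30) and from 9.67 to 9.21 (-0.46). Of the MMP genes with several probe sets above background, it was the 1 gene with every probe set lower.

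The membrane-type and membrane-anchored MMPs were higher or level. Mmp14 encodes MT1-MMP, which cuts collagen at the cell surface and activates pro-MMP2. Its 3 probe sets were at 11.13 and 11.64, 9.61 and 9.85, and 8.37 and 8.75, all higher on the HDAC9 siRNA array, by 0.51, 0.24 and 0.37. Mmp17, anchored to the membrane by a lipid, was at 7.35 and 7.88 (1.44-fold higher). Mmp24 did not differ (7.13 on both arrays), and Mmp16 was below background at 5.72 on the control array and just above it at 6.42 on the other, a bound of 0.08. Mmp23, an MMP held in the membrane through its amino-terminal end, had the highest ratio of the MMP genes: 8.48 and 9.23 by the first probe set (1.69-fold higher) and 8.06 and 9.19 by the second (2.18-fold higher). The median of the 14 MMP genes was 0.06, and 9 were above 0 with the deposited scaling, or 9 of 14 after centring, 7 of 13 after quantile normalization and 8 of 14 after loess.

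The 3 inhibitor genes above background all lay in the highest bin of mean signal, and by their highest-signal probe sets Timp1 and Timp2 were within that bin's scatter of 0.19 while Timp3, at 0.21, was just outside it. Timp1, the inhibitor induced by cytokines, was at 11.18 and 11.32 (0.14). Timp2, which also takes part in the activation of pro-MMP2, was at 14.33 and 14.39 (0.06), and its other 5 probe sets had ratios from -0.32 (a bound) to 0.09. Timp3, the inhibitor that binds to the matrix and blocks ADAM17 and aggrecanases, was higher by each of its 4 probe sets, with ratios of 0.21, 0.31, 0.36 and 0.41. These probe sets read 11.71 and 11.92, 11.22 and 11.53, 10.58 and 10.94, and 9.90 and 10.31. Timp4 was below background on both arrays.

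The ADAM genes with sheddase activity were split. Adam17, the enzyme that releases tumour necrosis factor, had log2 signals of 11.70 and 11.72 (0.02), and its other 2 probe sets had ratios of -0.18 and 0.07. Adam10, which cuts Notch receptors and membrane-bound chemokines, was at 12.45 and 12.38 (-0.07), with -0.20 and 0.06 by the others. Adam8, a leukocyte sheddase, read 13.06 on both arrays, and Adam9 read 13.06 and 13.25 (0.19). These 4 genes all lay in the highest bin of mean signal, and their probe sets above background had ratios between -0.20 and 0.19.

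Adam12 and Adam19, the meltrins, which are known from muscle, bone and activated fibroblasts, were higher. Adam12 read 8.66 and 9.38 by 1 probe set (1.64-fold higher), and 6.96 and 8.26 by the other (2.46-fold higher). Adam19 read 9.04 and 9.46 (0.42), and 7.48 and 7.81 (0.33). Adam33 was at 8.02 and 8.23 (0.21). Adam15 again gave opposite readings, from -0.30 (10.15 and 9.85) by the probe set with the highest signal to 0.43 (7.40 and 7.83) by the one with the lowest, with -0.02 and 0.13 between them. Adam28, a lymphocyte ADAM, was below background on both arrays.

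Adam11, Adam22 and Adam23 encode ADAMs without an active protease site, known as adhesion and receptor proteins of neurons. Adam23 read 6.60 and 7.67 (2.10-fold higher), and 6.39 and 7.12 by its second probe set (1.66-fold higher). Its control signals were thus close to the floor of 6.34. The ratio was 0.75 with a floor at the 99th percentile and 0.73 by the median over its probe sets. Adam11 was at 6.46 and 6.89 (0.43), and Adam22 at 6.79 and 6.91 (0.12).

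The ADAMs of testis and epididymis, which act in sperm maturation and fertilization, were nearly all below background. Of 16 such genes, 15 were below it on both arrays: Adam1a, Adam1b, Adam2, Adam3, Adam5, Adam6a, Adam6b, Adam7, Adam18, Adam21, Adam24, Adam25, Adam26a, Adam32 and Adam34. The exception was Adam4, at 7.29 and 7.27. Of 12 male germ cell markers, 10 were below background on both arrays, Prm1 was just above it on the HDAC9 siRNA array, and the germline helicase gene Ddx4 was at 6.18 and 9.19, at least 7.23-fold higher. The part of such transcripts in these results was not tested.

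The proteoglycan-cutting ADAMTS genes were all above 0 where measured. Adamts4, the aggrecanase induced by inflammatory cytokines, read 6.85 and 7.95 (2.14-fold higher), and 5.94, below background, and 7.09 by its second probe set (at least 1.68-fold higher). Adamts5, the other main aggrecanase, was at 9.23 and 9.63 (0.40), and its 2 further probe sets above background gave 0.46 and 0.46. Adamts9 was at 10.19 and 10.43 (0.24), with 0.28 and 0.85 by its other probe sets. Adamts1, next to Adamts5 on chromosome 16, was at 9.85 and 9.93 (0.08). Adamts8, Adamts15 and Adamts20 were below background on both arrays.

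Adamts3, which removes the amino-terminal propeptide of procollagen, was at 6.80 and 7.49 (1.62-fold higher), with its second probe set below background on both arrays. Adamts12, Adamts10 and Adamts7 had ratios of 0.24, 0.20 and 0.17 at signals of 7.04 to 7.51. The second probe set of Adamts10 pointed the other way (-0.43, a bound). Adamts16 was the 1 ADAMTS gene below 0, at 7.68 and 7.17 (1.42-fold lower). Adamts6, Adamts18 and Adamts19 were below background on both arrays. The median of the 9 ADAMTS genes was 0.24, and 8 were above 0, as after centring, quantile normalization and loess. By the median over probe sets, 6 of 8 were above 0. Of all genes, 54.1% were above 0, and 6 of the 9 ADAMTS genes lay in the lowest bin of mean signal.

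Of the ADAMTS-like genes, Adamtsl4, whose protein binds fibrillin microfibrils, was at 7.41 and 7.75 (0.34), and Adamtsl5 at 9.07 and 9.11 (0.04, or 0.31 by its second probe set). Adamtsl1, Adamtsl2 and Adamtsl3 were below background on both arrays.

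Several probe sets above background existed for 20 of the 40 genes. The 2 with the highest signals had the same direction in 16 of these 20 genes (80%), against 61.2% of all genes with several probe sets. All probe sets above background had the same direction in 13 of the 20, a count for which the share over all genes was not computed. The probe sets above background of Adamts4, Adam23, Mmp23, Adam12, Mmp14, Adam19, Adamts5, Adamts9 and Timp3 were all higher on the HDAC9 siRNA array. Their ratios ran from 0.21 to 1.30. Adam22, Adam33 and Adamtsl5 were also higher by every probe set above background, with ratios from 0.04 to 0.31. Mmp19 was lower by each of its probe sets (-0.30 and -0.46). Counted by probe set, 4 of 73 were at least 2-fold higher and 0 at least 2-fold lower, against 1.44% and 0.506% of all probe sets above background; the 4 belonged to Adamts4, Adam23, Adam12 and Mmp23.

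**Figure D2:**
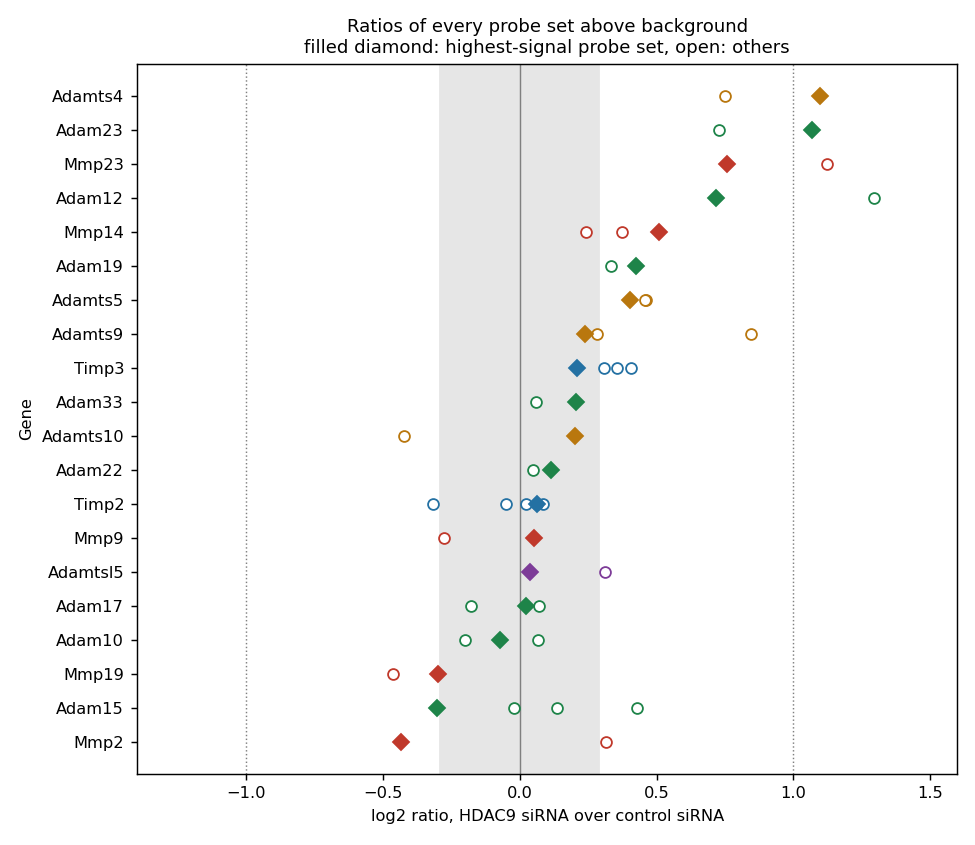
Log2 ratio (HDAC9 siRNA against control siRNA) for every probe set above background of the 20 genes with more than 1; diamonds are the probe sets with the highest signal, open circles the others, the grey band spans 0.29 on either side of 0 and dotted lines mark 2-fold. The upper genes, from Adamts4 to Timp3, lie to the right of 0 with all points, whereas the points of Mmp2, Adam15 and Adamts10 fall on both sides.

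**Figure D3:**
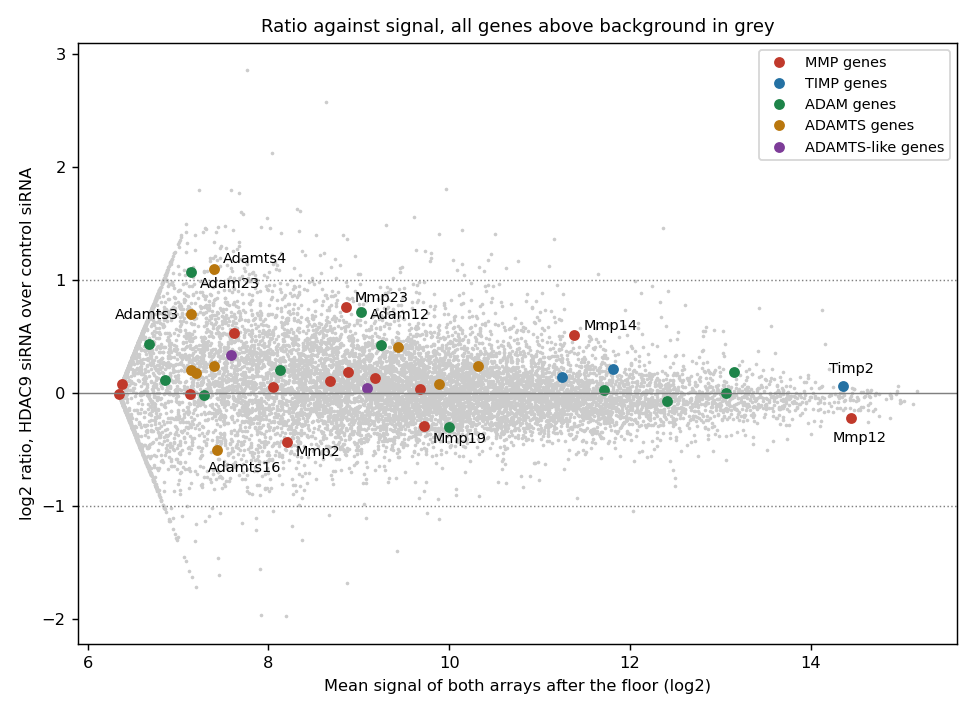
Log2 ratio against mean log2 signal after the floor for 12090 genes (grey) and the 40 genes of the families (coloured); dotted lines mark 2-fold and the slanted edges at the left come from the floor. The grey cloud widens toward low signals, where Adamts4 and Adam23 lie at 1.10 and 1.07, and narrows at high signals, where Mmp12 lies at -0.23 and Timp2 at 0.06.

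Genes that work with these enzymes were read from lists of the same pathway. Of 17 genes for matrix proteins that they cut, 3 (17.6%) were past 2-fold in the higher direction and 0 in the lower, where all genes gave 1.44% and 0.372%, with a median of 0.43 against 0.03 for all genes. They were Col1a1 (log2 9.06 and 10.86, 3.49-fold higher), Col3a1 (11.63 and 13.09, 2.75-fold higher) and Vcan, which encodes versican, a proteoglycan cut by ADAMTS enzymes (6.82 and 8.10, 2.43-fold higher). Fibronectin (Fn1, 0.73) and the basement membrane collagens Col4a1 (0.80) and Col4a2 (0.95) followed. Of other substrates with high signals, Col1a2 was at 0.43, Sparc at 0.16 and Dcn at 0.13. In all, 3 of the 17 were below 0, the lowest being the elastin gene Eln (8.06 and 7.53, -0.52), chosen after its value was seen. The collagens named here count again among the collagen genes that follow. Col1a1, Col1a2, Col3a1, Dcn and Lum also count among the stromal markers. The median of 25 collagen genes was 0.76, with 6 (24%) at least 2-fold higher, where 1.44% of all genes were, against a median of 0.14 for the 40 protease and inhibitor genes; with 1 array per group the difference between these medians could not be tested.

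Among 9 anchors, inhibitors and activating convertases, 0 were past 2-fold and the median was 0.28. Lrp1, the endocytic receptor that clears MMPs and TIMPs, was at 11.77 and 12.71 (1.92-fold higher), and the convertase gene Pcsk6 was below background on the control array and at least 1.73-fold higher. Basigin (Bsg, 0.01), which induces MMPs in neighbouring cells, and the hyaluronan receptor Cd44 (-0.08), a docking site for proteases, differed little. Of 7 regulators of ADAM10 and ADAM17, 0 were past 2-fold either. The tetraspanin gene Tspan14, whose product carries ADAM10 to the surface, was at 11.77 and 11.23 (-0.54). Frmd8 was at -0.11, Tspan5 at 0.38 and the iRhom gene Rhbdf2 at 0.32. The median of these regulators was 0.17, with 4 above 0 and 3 below.

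The 20 shed ligands and receptors had a median of 0.06 and 0 genes past 2-fold. Their ratios ran from -0.26 (a bound) to 0.94, and 13 of the 20 were within 0.29 of 0. The highest was that of Lrp1, which, like Cd44, is counted in the anchors and inhibitors as well. Csf1r and Mertk also count among the macrophage markers. Csf1r (-0.15), App (0.06) and Trem2 (0.11) were near 0, as was Tnf (8.54 and 8.55), chosen after its value was seen because ADAM17 releases its product. The plasminogen system, which activates several pro-MMPs, had 1 of 7 genes above 0 (14.3%, against 54.1% of all genes) and a median of -0.09. Most of these differences were small, with 5 of the 7 ratios within 0.29 of 0. Its receptor gene Plaur was at 11.17 and 10.81 (-0.35) and the annexin gene Anxa2 at 14.01 and 13.87 (-0.14). S100a10 was at -0.03 and Plgrkt at -0.09. The cathepsins, which belong to the lysosome, and their inhibitor cystatin C had ratios from -0.16 to 0.04 and a median of -0.04 over 10 genes.

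**Figure D4:**
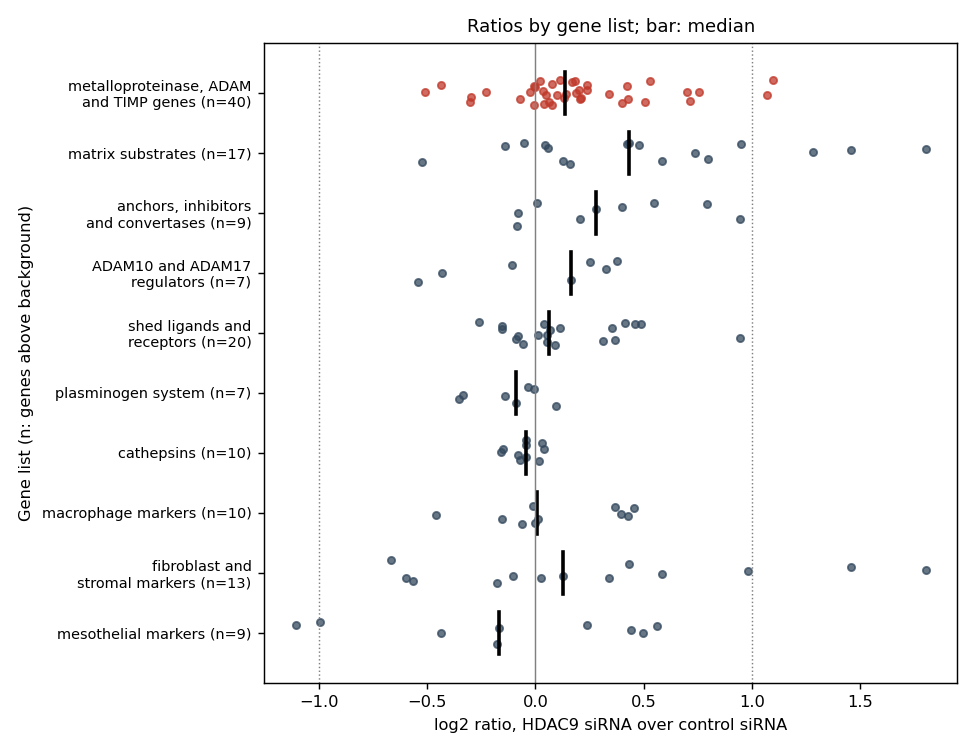
Log2 ratios (HDAC9 siRNA against control siRNA) by gene list, each point 1 gene above background and each bar the median; dotted lines mark 2-fold. Cathepsin genes form a narrow band at 0, protease and inhibitor genes spread from -0.51 to 1.10 around 0.14, and substrate genes run from -0.52 to 1.80. The lists differ in signal: all cathepsin genes lie in the highest bin of mean signal (scatter 0.19). Of the 40 protease and inhibitor genes, 15 lie in the lowest bin (scatter 0.41).

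Markers of other cells were measured beside these results. The macrophage markers had a median of 0.01 over 10 of 11 genes above background. Their ratios ran from -0.46 to 0.46, and 5 of the 10 were within 0.29 of 0, against 65.7% of all genes. Lyz2 (14.72 on both arrays), Cd68 (14.46 and 14.40) and Csf1r (13.90 and 13.74) had the highest signals. Summed linear signals of the list were 86926 (control siRNA) and 84465 (HDAC9 siRNA). All 13 fibroblast and stromal markers were above background on both arrays, with summed signals of 48300.2 and 63516. Col1a1, Col3a1 and Fbln1 (0.98) were at least 1.5-fold higher, whereas Postn (-0.60) and Mfap5 (-0.67) were at least 1.5-fold lower, and the median was 0.13. All 9 mesothelial markers were above background, with a median of -0.17 and summed signals of 9443 and 10863. Msln (7.49 and 6.39, -1.11) and Krt7 (8.83 and 7.84, -0.99) were at least 1.5-fold lower, where 2.79% of all genes were. In total 5 of the 9 were below 0 and 4 above, among the latter Upk3b (12.46 and 12.70, 0.24), Lrrn4 (0.56) and Wt1 (0.44). The part of stromal and mesothelial cells in the levels of Mmp14, Mmp23, Adam12, Adamts4 and Adamts5 was not tested. Of 9 neutrophil markers measured, 7 were below background on both arrays, including Mpo, Elane and Ltf. The others were S100a8 (9.13 and 8.91, -0.22) and Csf3r (8.31 and 8.76, 0.45). All 5 mast cell markers were below background on both arrays. So were 4 of 5 endothelial markers, with Kdr as the exception (8.18 and 8.36, 0.19). Of 4 B cell markers measured, 3 were below it on both arrays, and Pax5 was at 6.03, below background, and 6.74. Of 7 T cell markers, 4 were below background on both arrays (Cd3d, Cd3e, Cd3g and Cd4), and the other 3 were at least 1.5-fold lower on the HDAC9 siRNA array, with a median of -0.77, where 2.79% of all genes were. Lat, an adaptor of T cell receptor signalling, was at 9.46 and 8.70 (1.70-fold lower), Thy1 at 7.74 and 7.03 (1.64-fold lower), and Cd8a at 7.13 and, below background, 4.65 (at least 1.73-fold lower). The summed signals of the T cell markers were 1113 and 675, and their part in these results was not tested.

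The siRNA target was close to background. One probe set of Hdac9 read 6.88 and 5.69, at least 1.46-fold lower with the floor, and the other was below background on both arrays. Of 45037 probe sets, 51.4% (control siRNA) and 53.6% (HDAC9 siRNA) were above background. The precision of every value is limited by the number of arrays.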

How the data were processed

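Total RNA of both samples was labelled with biotin and hybridised to Affymetrix expression arrays, per the labels. Per probe set, the authors deposited a log2 signal. The submitters' processing notes name MAS5, which summarises the probes of each set; its version, scaling and detection calls were not given in the sources used here. Without the highest and lowest 2%, the mean linear signal was 497 on both arrays, so the authors' scaling was kept.

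Gene names came from the platform's annotation of 2016. The 34945 with 1 gene symbol were used, and 932 with several and 9160 with none were left out. All 70 genes matched the RefSeq table of GRCm38.p6 and 0 symbols changed. Per gene, the probe set with the highest mean linear signal gave the value, signals were raised to the floor, and log2 ratios were taken with Python 3.11.15, pandas 2.3.3 and numpy 2.4.6. The steps were tested on simulated data. Genes named were those above background, and of each other list those past 1.5-fold and up to 4 with the highest signals. The genes, the lists and the tests were chosen with earlier results of these data known. Alternatives were 3 scalings (loess with statsmodels 0.14.6, span 0.3), 3 floors, 2 ways to choose probe sets and 2 thresholds. A planned count of protein motifs was not run, because no protein sequences were used here.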

Additional observations from a re-analysis of the deposited data

How the results depend on the processing

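Each of the 40 genes was recomputed under 8 alternatives, which gave 310 values: 300 lay within 0.29 of the reported one and 10 did not, and Adamts4 and Adam23 never changed sign. Of values short of 2-fold, 13 changed sign. Mmp2 was at 0.31 without _s_at, _x_at and _a_at probe sets, which is the ratio of its remaining probe set. By the median over probe sets, Adam15 was at 0.11 and Adamts10 at -0.52, and the probe sets of each of these genes pointed both ways. What sets such probe sets apart was not tested. Adamts4 ranged from 0.99 to 1.13 and Adam23 from 0.73 to 1.07.

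Genes of the families at least 2-fold higher numbered 0 after quantile normalization (Adamts4 at 0.999, just short, and Adam23 at 0.94), 0 after loess (0.99 and 0.96), 1 with a 99th-percentile floor and 10 with no floor, where 5 were lower and all 70 were counted; at 1.5-fold there were 5 and at 3-fold 0. Among all genes, those at least 2-fold higher were 123 of 12036 after quantile normalization and 134 of 12081 after loess. With a 99th-percentile floor they were 116 of 10694, and 36 genes of the families were counted there. All genes past 2-fold upward and downward were 658 and 259 of 15136 with a 75th-percentile floor. With no floor they were 2223 and 1481 of 18193. They numbered 944 and 337 of 12090 at 1.5-fold and 10 and 6 at 3-fold. Lower genes numbered 21 with a 99th-percentile floor, 77 by the median over probe sets and 29 when only genes above background on both arrays were counted, a choice made after seeing the data, as was the count of ratios above 0. The medians of the 5 subfamilies moved by less than 0.29 under each alternative run. Signal over background limits the genes close to the floor. No paired analysis was possible because each group had 1 array.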

Other observations

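Adamdec1, an ADAM-like gene that the naming rule leaves out, was below background on both arrays, at log2 6.30 (control siRNA) and 5.37 (HDAC9 siRNA). Probe sets shared between genes were also left out. Of 4 probe sets shared by Adam1a and Mapkapk5, 1 was above background, at 7.27 and 6.95, and the 1 shared by Adam6a and Adam6b was below it, at 5.69 and 3.31. Among genes below background on both arrays, deposited signals could lie far apart without a usable ratio, as for Adam34 (0.14 and 5.76) and Adamts18 (1.76 and 5.76).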
